A study of Mus musculus with 2 samples.

Results

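The genes described here are 8 core pluripotency genes of the mouse, *Nanog*, *Pou5f1*, *Sox2*, *Klf4*, *Esrrb*, *Zfp42*, *Dppa3* and *Tet1*, taken by name out of 20547 protein-coding genes on chromosomes 2 to 19 and X. They were seen through their contacts in trans, that is, with another chromosome. In Hi-C, chromatin is cross-linked and cut, neighbouring DNA ends in the nucleus are ligated, and paired-end reads of the ligated molecules give 1 contact per pair. A member's window was the gene with 500 kb on either side, and its trans pairs were those with the other end on chromosome 1 between 3 and 90.75 Mb (assembly GRCm38). The windows of *Nanog* and *Dppa3* share 922784 bp and were joined to 1 locus whenever members were pooled, so that 8 members make 7 loci.

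Mouse embryonic stem (ES) cells were profiled, with 1 wild-type library and 1 *Lin28a* knockout library. Both cultures had spent 2 days on gelatin and embryonic fibroblast feeders in LIF/2i, a medium with leukemia inhibitory factor and kinase inhibitors that keeps ES cells naive. *Lin28a* encodes an RNA-binding protein, and the study worked both with ES clones picked after CRISPR/Cas9 cutting in its second exon and with ES cells from knockout mice. The label of the Hi-C library does not say which of these it was. The study's default ES line was E14, with V6.5 where stated, and the line used for Hi-C is not named in the labels. Any feeder cells left in the harvest are in both libraries, and contact lists hold no expression by which ES cells could be told from feeders. The labels speak of 2 replicates per group while the lists name none, so each group is taken as 1 sample, no test between groups was made, and every interval below is a 95% interval for counting error only. Read names show 2 sequencing runs in each library, and whether these are the 2 replicates of the labels or repeated sequencing of 1 library is not known here.

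Pluripotent cells of the naive state are held there by a small set of transcription factors that bind their own and each other's genes. *Pou5f1* (OCT4), *Sox2* and *Nanog* form its centre, and *Klf4* and *Esrrb* are further DNA-binding factors of the same network. *Zfp42* (REX1) and *Dppa3* (STELLA) are widely used marks of that state, and the product of *Tet1* oxidises methylated cytosine. In most mammalian nuclei, contacts between chromosomes join gene-rich with gene-rich and gene-poor with gene-poor stretches more often than they mix them. *Prdm14*, another regulator of the naive state, lies in the held part of chromosome 1, so contacts of the members with it could be counted as well.

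A Hi-C end can be read only next to a site of the enzyme that cut the chromatin. The fragment numbers in the lists matched a count of GATC sites within 1 for 99.7% to 99.8% of ends on the members' chromosomes, so GATC was taken as the cut site. RefSeq promoters of GRCm38 (250 bases before to 50 after the start) were found for 7 of the 8 members, all but *Dppa3*. Of 32851 promoters searched, 48.0% held a GATC, which reads the same on both strands and was the only motif searched. Promoters of 4 members are shown to let a reader see how sites fall at these starts, with each GATC in capitals. The *Nanog* promoter shown (chr6:122707239-122707538, plus strand) has 2 sites, and a second entry of that gene (chr6:122707315-122707614) has 1. The promoter of *Zfp42* (chr8:43306960-43307259, minus strand) has 1 site. Those of *Sox2* (chr3:34649745-34650044, plus strand) and *Klf4* (chr4:55532426-55532725, minus strand) have 0, so contacts of these stretches were read only from sites outside them.
Nanog: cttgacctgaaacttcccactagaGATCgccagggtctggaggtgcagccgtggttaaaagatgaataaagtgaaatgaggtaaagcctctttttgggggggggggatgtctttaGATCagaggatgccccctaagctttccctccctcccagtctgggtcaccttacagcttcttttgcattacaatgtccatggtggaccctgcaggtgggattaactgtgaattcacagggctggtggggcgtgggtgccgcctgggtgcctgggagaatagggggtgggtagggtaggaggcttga
Zfp42: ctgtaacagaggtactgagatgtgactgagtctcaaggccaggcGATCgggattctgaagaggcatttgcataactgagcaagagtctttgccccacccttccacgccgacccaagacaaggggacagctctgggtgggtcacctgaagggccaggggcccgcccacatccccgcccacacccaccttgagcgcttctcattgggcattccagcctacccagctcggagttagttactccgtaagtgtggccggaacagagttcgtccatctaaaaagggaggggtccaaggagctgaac
Sox2: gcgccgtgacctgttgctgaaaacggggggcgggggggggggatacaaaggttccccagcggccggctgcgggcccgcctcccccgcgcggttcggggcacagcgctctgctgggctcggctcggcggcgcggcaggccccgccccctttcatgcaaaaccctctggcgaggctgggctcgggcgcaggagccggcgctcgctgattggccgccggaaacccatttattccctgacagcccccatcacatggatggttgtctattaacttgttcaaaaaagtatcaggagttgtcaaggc
Klf4: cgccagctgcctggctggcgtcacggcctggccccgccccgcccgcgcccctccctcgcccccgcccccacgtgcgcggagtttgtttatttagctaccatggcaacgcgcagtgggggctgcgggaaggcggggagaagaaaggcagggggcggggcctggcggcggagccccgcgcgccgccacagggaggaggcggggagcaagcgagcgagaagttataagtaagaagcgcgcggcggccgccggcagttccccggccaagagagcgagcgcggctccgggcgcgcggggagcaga

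Within 5 kb of the start site, each gene received 5 to 20 trans ends (wild-type) or 1 to 21 (knockout). *Pou5f1* had the most, with 20 and 21 ends, followed by *Nanog* with 16 and 13 and *Tet1* with 14 and 10. *Dppa3* had 10 and 10, *Esrrb* 10 and 5, *Sox2* 5 and 11 and *Zfp42* 5 and 10. *Klf4* had 8 wild-type ends and 1 knockout end. Single promoters thus rested on too few ends for a comparison.

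From the held part of chromosome 1 there were 5767991 wild-type and 4412861 knockout pairs, of which 2304846 and 1764698 were in trans with another assembled chromosome. The targeted gene *Lin28a* (chr4:134003330-134018841) received 12 and 15 trans ends. The lists give positions and no read sequence, so a small edit cannot be seen in them. Chromosomes did not keep their share of trans pairs: in the knockout library the share of chromosome 8, which carries *Zfp42*, was 1.34 times that in the wild-type library, and the share of chromosome 6, which carries *Nanog* and *Dppa3*, was 1.25 times. The other members' chromosomes (3, 4, 10, 12 and 17) lay between 0.934 and 0.986.

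The member windows together held 9207 wild-type pairs and 7097 knockout pairs, which is 0.399% and 0.402% of all trans pairs. Levels differed among members and kept nearly the same order in both libraries. A level here is the number of pairs per Mb of window divided by the number per Mb of the whole partner chromosome, so that 1 is the chromosome's mean. *Sox2* (window chr3:34150405-35152461) stood highest, with 1379 wild-type pairs and a level of 1.55 (1.47 to 1.64), and with 1030 knockout pairs and a level of 1.59 (1.50 to 1.69). *Esrrb* (chr12:85861117-87021628) followed in the wild-type library at 1.44 (1.37 to 1.51) from 1560 pairs, against a knockout level of 1.36 (1.27 to 1.44) from 1051 pairs. *Tet1* (chr10:62304570-63408996) was at 1.43 (1.37 to 1.50) and 1.43 (1.35 to 1.51), from 1670 and 1214 pairs. The intervals of these 3 loci lay above 1. Over all gene windows the median level was 1.14 in wild-type and 1.11 in knockout pairs, and the share with such an interval was not computed. *Tet1* stood at percentiles 84.3 and 80.1 of all gene windows. *Esrrb* stood at percentiles 84.4 and 74.0 of all gene windows, and its intervals overlapped those of *Tet1* in both libraries.

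*Pou5f1* (chr17:35006018-36010772) had 1381 and 1073 pairs, with levels of 1.27 (1.21 to 1.34) and 1.31 (1.23 to 1.39), also above 1. *Nanog* (chr6:122207489-123214633) had 1259 and 1054 pairs and levels of 1.18 (1.12 to 1.25) and 1.04 (0.975 to 1.101). *Dppa3* (chr6:122126410-123130272), whose window shares 92.5% and 92.8% of the pairs of the *Nanog* window, had 1210 and 1016 pairs and levels of 1.14 (1.07 to 1.204) and 1.00 (0.942 to 1.07). *Nanog* and *Dppa3* are therefore not separate measurements at this window size. *Klf4* (chr4:55027143-56032466) was near the mean of its chromosome, at 1.08 (1.01 to 1.15) from 1008 pairs and 1.05 (0.977 to 1.13) from 711 pairs. *Zfp42* (chr8:42795063-43806980) was the only member below its chromosome's mean in both libraries, at 0.903 (0.845 to 0.964) from 905 pairs and 0.901 (0.844 to 0.961) from 926 pairs.

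The order of the levels did not follow the number of genes in the windows. The *Sox2* window held 1 protein-coding start site, that of *Sox2* itself, and the *Klf4* window held 2, whereas the *Pou5f1* window held 61, *Tet1* 23, *Nanog* 20, *Dppa3* 19, *Esrrb* 11 and *Zfp42* 7. The gene-poorest window thus had the highest level, and among all gene windows with at least 100 pairs in each library it stood at percentiles 91.5 (wild-type) and 89.7 (knockout). GC content ran from 39.6% (*Zfp42*) to 48.9% (*Pou5f1*), with *Sox2* at 43.7%. The density of cut sites ran from 2.38 per kb (*Sox2*) to 2.82 per kb (*Dppa3*), so that the member with the most pairs for its chromosome had the fewest sites per kb of the 8.

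**Figure D1:**
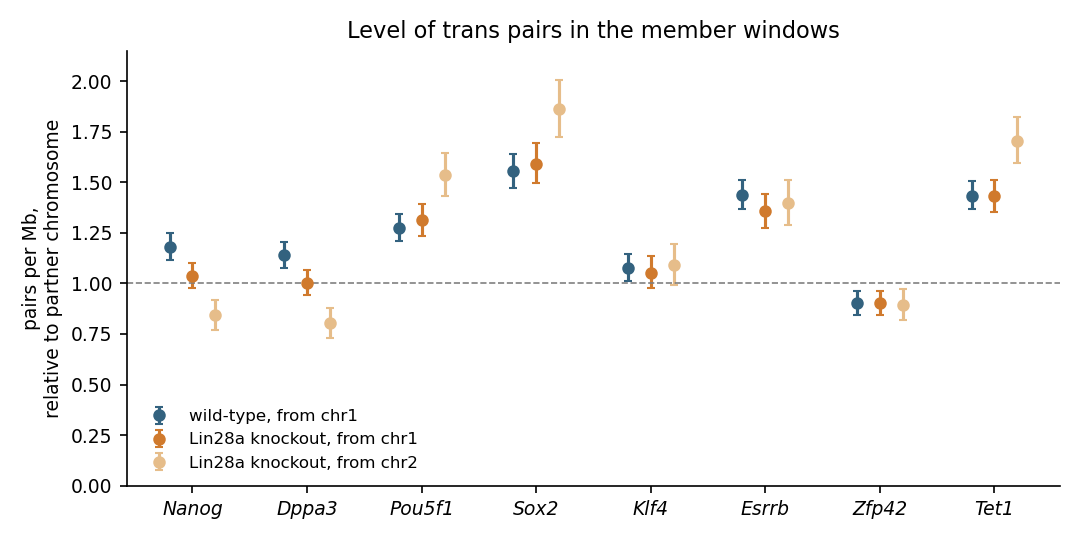
Level of trans pairs in the window of each member (vertical axis, pairs per Mb relative to the mean of the partner chromosome; horizontal axis, the 8 genes). Blue and dark orange points are pairs with chromosome 1 in the wild-type and the Lin28a knockout library, pale points are knockout pairs with chromosome 2, and bars are 95% Poisson intervals. *Sox2* is highest and *Zfp42* lies below 1 in all 3 sets.

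Whether the members as a group changed their trans contacts was asked by the ratio of knockout to wild-type pairs, divided by the same ratio for the whole partner chromosome. Pooled over the 7 loci this corrected ratio was 0.975 (0.945 to 1.01), with an interval that held 1. With the *Pou5f1* locus left out it was 0.966 (0.934 to 0.999), an interval just below 1, while leaving out any other locus gave intervals that held 1. Of the 8 members, 0 were past 1.2-fold in either direction, where 6.18% of the 20353 windows of all protein-coding genes were. At 1.1-fold, 2 of 8 members (*Nanog* and *Dppa3*, the same locus) were past, against 33.3% of all windows. The median over the members was 0.987 and that over all gene windows was 0.993.

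*Pou5f1* and *Sox2*, partners that bind DNA together, had corrected ratios of 1.03 (0.950 to 1.12) and 1.02 (0.943 to 1.11). *Tet1* was at 0.997 (0.926 to 1.07), *Klf4* at 0.977 (0.887 to 1.08) and *Esrrb* at 0.943 (0.871 to 1.02). For these 5 genes the interval held 1. *Zfp42* had 926 knockout pairs where its share of all trans pairs in the wild-type library gave 693, a ratio of 1.34 (1.22 to 1.47) before correction. Its partner chromosome had the same ratio, and after correction it was at 0.998 (0.909 to 1.09). The 1 member past 1.2-fold without the correction therefore moved with its whole chromosome.

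*Nanog* and *Dppa3* were the members whose intervals left 1 on opposite sides under different references. Its corrected ratio was 0.878 (0.808 to 0.954), and that of *Dppa3* was 0.881 (0.810 to 0.958), both below 1. Without correction the ratios were 1.09 (1.01 to 1.19) and 1.097 (1.01 to 1.19), above 1. Against the 5 Mb on either side of the window they were 1.01 (0.933 to 1.101) and 1.02 (0.937 to 1.11). Along chromosome 6 the uncorrected ratio fell from 1.61 (1.56 to 1.66) in the first 10 Mb to 1.03 (0.998 to 1.06) between 140 and 150 Mb, and the step from 120 to 130 Mb that holds both genes was at 1.08 (1.05 to 1.12). The locus lies at 81.9% of the chromosome's length and had the ratio of its surroundings, which was lower than the chromosome's mean of 1.25. Other members also moved across or up to 1, within intervals that held 1 in the corrected values. The ratio of *Sox2* was 0.976 without correction, 1.02 against its chromosome and 0.964 against its flanks, and that of *Esrrb* was 0.880 (0.813 to 0.952), 0.943 and 1.00 (0.927 to 1.09). Against the flanks the pooled ratio was 0.990 (0.960 to 1.02).

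**Figure D2:**
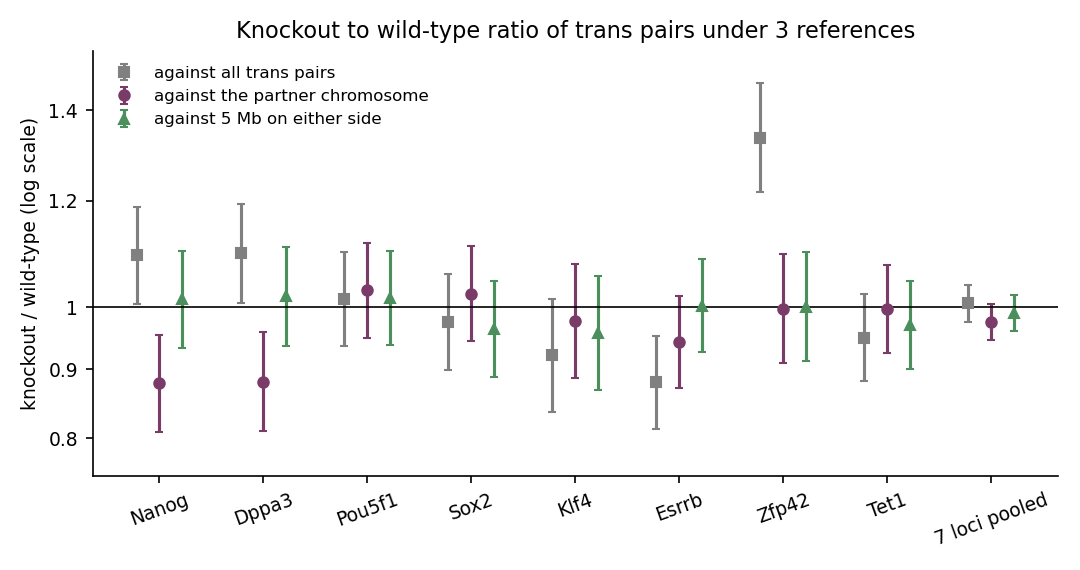
Knockout to wild-type ratio of trans pairs in each member window and in the 7 loci pooled (vertical axis, log scale), against all trans pairs (grey squares), the partner chromosome (purple circles) and 5 Mb on either side (green triangles), with 95% intervals. *Zfp42* stands at 1.34 only before correction, and *Nanog* and *Dppa3* lie on different sides of 1 depending on the reference.

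The members' corrected ratios ran from 0.878 to 1.03. Of 16 other pluripotency genes, 1 was past 1.2-fold, a share near the 6.18% of all windows, with a median corrected ratio of 0.946 and a range from 0.827 to 1.14. The lowest were *Tcl1*, a coactivator of AKT kinase, at 0.827 (0.753 to 0.908), and *Klf2*, a factor related to KLF4, at 0.865 (0.794 to 0.943). The highest were the T-box factor *Tbx3* at 1.14 (1.05 to 1.24) and *Mycn*, a MYC family factor, at 1.101 (1.02 to 1.19). Of 14 early lineage genes, which are off or low in naive cells, 1 was past 1.2-fold, again near that share, with a median of 0.947 and a range from 0.759 to 1.08. Their lowest were *Foxa2*, an endoderm factor, at 0.759 (0.665 to 0.865), and *Neurog2*, a neural factor, at 0.861 (0.749 to 0.987), and their highest were *Otx2* at 1.08 (0.976 to 1.19) and *Myod1*, the muscle factor, at 1.02 (0.916 to 1.14). The medians of all 3 lists were below 1, and the members' was the nearest to it.

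To see what kind of partner the members met on chromosome 1, its 351 bins of 250 kb were put in classes by the number of protein-coding start sites they hold. There were 155 bins with 0, 124 with 1 to 2, 55 with 3 to 5 and 17 with 6 or more. The expected number of pairs came from the contacts of the same bins with the member's whole chromosome. Pooled over the 7 loci, observed over expected rose with the gene count in the wild-type library, from 0.919 (0.887 to 0.951) in bins with 0 genes through 1.01 and 1.09 to 1.16 (1.08 to 1.25) in bins with 6 or more. In the knockout library the same classes gave 0.906 (0.871 to 0.943), 1.02, 1.097 and 1.13 (1.04 to 1.23). The members as a group thus met gene-rich bins more often than their chromosomes did, in both libraries.

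A preference score puts this in 1 number per locus. It is the log2 ratio of observed over expected in bins with 3 or more genes to that in bins with 0, so that 0 is the preference of the whole partner chromosome. The pooled wild-type score was 0.27 (0.20 to 0.35), the pooled knockout score 0.29 (0.20 to 0.37), and knockout minus wild-type 0.01 (-0.10 to 0.13). Over all gene windows the median wild-type score was 0.22, the median knockout score 0.27 and the median difference 0.04. A pooled score weighs loci by their pairs, so the like measure is the median over the 8 members, each window scored alone. It was 0.22 in the wild-type and 0.17 in the knockout library, with a median difference of -0.12. Scores above 0 were found for 7 of 8 members (wild-type) and 4 of 8 (knockout), against 68.8% and 68.4% of all gene windows. With the expectation taken from 5 Mb on either side in place of the chromosome, the pooled scores were 0.11 (0.04 to 0.19) and 0.12 (0.04 to 0.21).

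The loci fell on both sides of the pooled value. *Pou5f1* scored 0.48 (0.29 to 0.67) and 0.57 (0.35 to 0.78), *Tet1* 0.48 (0.30 to 0.65) and 0.69 (0.48 to 0.89), *Sox2* 0.45 (0.26 to 0.64) and 0.36 (0.13 to 0.58), and *Esrrb* 0.32 (0.14 to 0.50) and 0.63 (0.41 to 0.86). Each of these 4 loci had intervals above 0 in both libraries, as did 45.6% of all gene windows, so 4 of 8 members is near the background. The *Sox2* window, with 1 gene of its own, met bins of 3 to 5 genes 1.199 (1.07 to 1.34) and 1.15 (0.998 to 1.31) times as often as its chromosome did. *Klf4* scored 0.04 (-0.19 to 0.27) and -0.13 (-0.40 to 0.14), and the locus of *Nanog* and *Dppa3* scored 0.05 (-0.15 to 0.24) and -0.09 (-0.31 to 0.13), although its windows held 19 and 20 start sites. *Zfp42* scored -0.17 (-0.41 to 0.07) and -0.32 (-0.57 to -0.07), the lowest of the loci in both libraries. In bins with 6 or more genes *Zfp42* had 63 wild-type pairs, 1.08 (0.831 to 1.38) of the expected number, and 40 knockout pairs, 0.653 (0.466 to 0.889). Scored on these bins alone against bins with 0 genes, *Zfp42* was lower in the knockout library by 0.73 on the log2 scale (interval of the difference -1.34 to -0.12) and *Tet1* was higher by 0.46 (0.05 to 0.87), where 8.08% of all gene windows had an interval without 0 under this scoring.

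**Figure D3:**
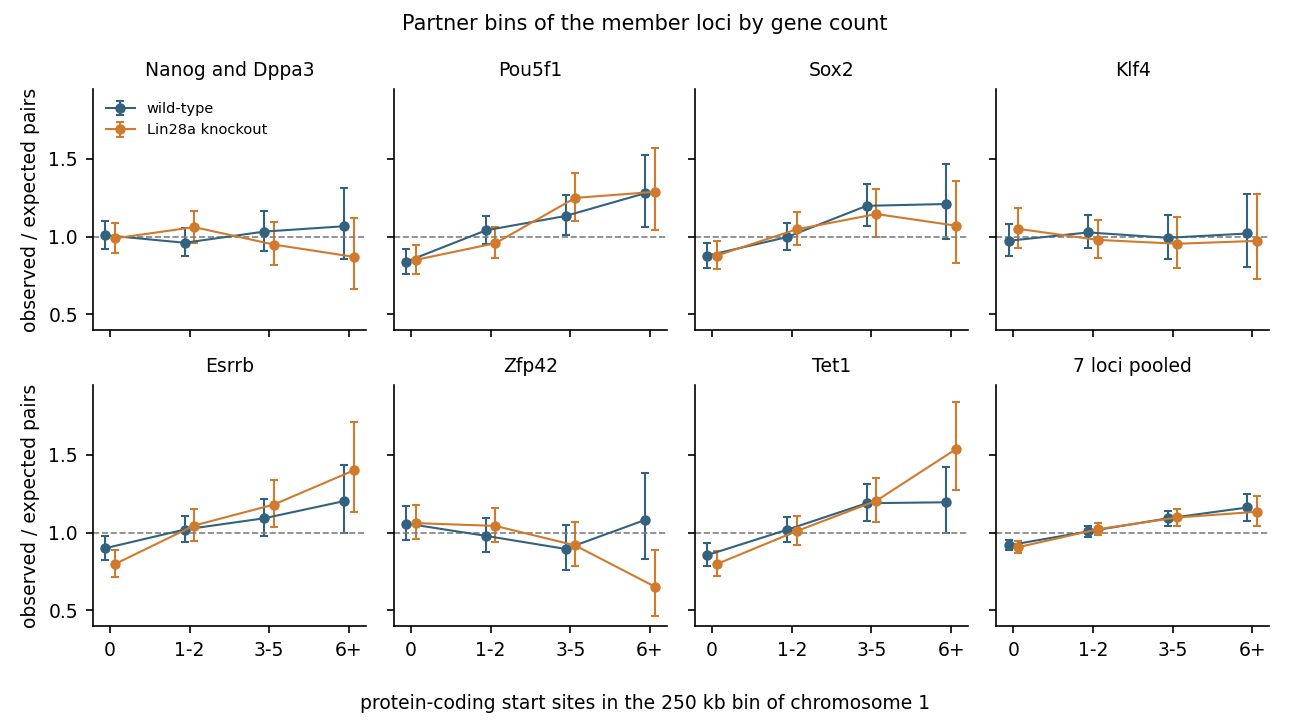
Observed over expected pairs (vertical axis) of each locus and of the 7 loci pooled with chromosome 1 bins of 0, 1 to 2, 3 to 5 and 6 or more protein-coding start sites (horizontal axis), in the wild-type (blue) and Lin28a knockout (orange) library, with 95% Poisson intervals. *Pou5f1*, *Sox2*, *Esrrb* and *Tet1* lie below 1 in bins with 0 genes in both libraries, while *Nanog* with *Dppa3*, *Klf4* and *Zfp42* do not.

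Between the libraries, *Esrrb*, an orphan nuclear receptor, was the only member whose score, as defined above from bins of 3 or more genes, differed by an interval without 0, against 7.69% of all gene windows. Its score was higher in the knockout library by 0.32 (0.03 to 0.60). Its pairs with bins of 0 genes went from 535 (0.900 of the expected number, 0.825 to 0.979) to 319 (0.797, 0.712 to 0.889), and those with bins of 6 or more genes from 124 (1.203, 1.00 to 1.43) to 96 (1.40, 1.13 to 1.71). With a window of 250 kb on either side the difference was 0.25 (-0.13 to 0.63), with 1 Mb it was 0.18 (-0.03 to 0.38), and with bins classed by all annotated genes it turned to -0.22 (-0.79 to 0.34). Taken from bins with 6 or more genes alone it was 0.39 (-0.04 to 0.83), and with 5 Mb flanks as expectation 0.24 (-0.04 to 0.53). Its interval left out 0 with mapping quality of 30 or more, at 0.38 (0.07 to 0.68), and in the larger run, at 0.32 (0.03 to 0.62). An expectation from all partner chromosomes, chosen after seeing the data, gave 0.30 (0.01 to 0.58), and the smaller run gave 0.16 (-1.03 to 1.34). *Tet1* was higher by 0.21 (-0.06 to 0.48), and by 0.23 (0.03 to 0.44) with 1 Mb on either side, so which members' intervals leave out 0 depended on the setting. *Tet1* had 1.195 (0.997 to 1.42) and 1.54 (1.27 to 1.84) times the expected pairs in bins with 6 or more genes. *Pou5f1* was higher by 0.08 (-0.20 to 0.37). The other 4 loci had lower scores in the knockout library, with intervals that held 0. The sign turned under at least 1 setting for each of the 7 loci. *Pou5f1* was at -0.05 (-0.25 to 0.16) with 1 Mb on either side, and *Tet1* at -0.23 (-1.46 to 0.99) in the smaller sequencing run. With all annotated genes *Nanog* with *Dppa3*, *Sox2* and *Zfp42* were at 0.28 (-0.23 to 0.78), 0.22 (-0.31 to 0.74) and 0.38 (-0.16 to 0.92), and *Klf4* was at 0.09 (-0.41 to 0.60) with 250 kb on either side. Of the 8 members 3 were higher in the knockout library, as were 59.0% of all gene windows.

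The members also differed in which stretch of chromosome 1 they met. These values were not computed for the windows of all genes, so whether they are usual for gene windows is not known. The gene content of the stretches was not taken into account either. With the held part cut into 3 equal stretches, the locus of *Nanog* and *Dppa3* met the last stretch 1.15 (1.05 to 1.25) and 1.19 (1.08 to 1.30) times as often as chromosome 6 did, in the wild-type and the knockout library. *Esrrb* met the last stretch 1.102 (1.02 to 1.19) and 1.21 (1.103 to 1.33) times and the first stretch 0.831 (0.751 to 0.918) and 0.710 (0.619 to 0.810) times as often as its chromosome. *Nanog* with *Dppa3*, *Tet1* and *Pou5f1* were also low in the first stretch, *Nanog* with *Dppa3* at 0.872 (0.783 to 0.969) and 0.888 (0.790 to 0.994), *Tet1* at 0.864 (0.786 to 0.948) and 0.749 (0.666 to 0.839) and *Pou5f1* at 0.875 (0.788 to 0.969) and 0.831 (0.736 to 0.935), and stood at 1.03 and 1.13 (*Tet1*) and at 1.09 and 1.07 (*Pou5f1*) in the last. *Zfp42* was highest in the first stretch, at 1.13 (1.01 to 1.26) and 1.07 (0.959 to 1.2005). *Sox2* was highest in the middle stretch, at 1.13 (1.04 to 1.23) and 1.15 (1.04 to 1.26).

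The windows of all genes whose 4 classes in both libraries lay nearest to the mean of the 7 loci were those of *Man2b2*, a lysosomal mannosidase on chromosome 5, *Mtmr6*, a phosphoinositide phosphatase on chromosome 14, and *Celf3*, an RNA-binding protein on chromosome 3. Their Euclidean distances over the 8 log2 values were 0.065 to 0.067, where the median over all gene windows was 0.543. The loci themselves lay between 0.224 (*Sox2*) and 0.854 (*Zfp42*) from their own mean.

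Contacts of the members with *Prdm14* were counted in its bin (chr1:13000001-13250000), which holds no other protein-coding start site. The 7 loci had 38 wild-type pairs with it where 33.4 were expected, a ratio of 1.14 (0.804 to 1.56), and 26 knockout pairs where 27.4 were expected, a ratio of 0.950 (0.621 to 1.39). The knockout value over the wild-type value was 0.836 (0.487 to 1.41). Among 349 bins the *Prdm14* bin ranked 86 and 175. An excess of contacts between the members and *Prdm14*, or a change of it, was not detectable at this depth, and with 1 bin on either side added the values were 1.07 (0.870 to 1.30) and 1.11 (0.884 to 1.37). The 16 other pluripotency genes had 66 and 42 pairs with the same bin, 0.993 (0.768 to 1.26) and 0.850 (0.613 to 1.15) of the expected number, and the 14 early lineage genes had 55 and 54, 1.096 (0.826 to 1.43) and 1.38 (1.03 to 1.79).

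Taken by locus, the wild-type pairs with the *Prdm14* bin were 13 for *Tet1*, 7 for *Pou5f1*, 5 for *Sox2*, 5 for *Esrrb*, 4 for *Nanog* with *Dppa3*, 3 for *Klf4* and 1 for *Zfp42*. The knockout pairs were 3, 8, 7, 4, 2, 2 and 0 in the same order. *Tet1* was the locus that stood apart, with 2.03 (1.08 to 3.48) times the expected number of wild-type pairs but 0.546 (0.113 to 1.60) times that of knockout pairs. Without it the pooled values were 0.925 (0.598 to 1.37) and 1.05 (0.667 to 1.58). The 13 pairs ended on 13 different restriction fragments around *Tet1*, 2 of them within the gene, and lay between 6.97 and 123 kb from the *Prdm14* start site. *Tet1* was picked as the locus with the highest wild-type value, and 3.72% of all gene windows had an excess in this bin at least as large. Its wild-type interval also lay above 1 with windows of 250 kb on either side (2.48, 1.14 to 4.71) and with mapping quality of 30 or more (2.19, 1.13 to 3.83). The larger sequencing run gave 2.08 (1.07 to 3.63), 5 Mb flanks as expectation 2.54 (1.35 to 4.34) and the smaller run 1.62 (0.041 to 9.03). With the *Prdm14* gene and 50 kb on either side in place of the bin, *Tet1* had 0.666 (0.081 to 2.41) times the expected number, and with *Tet1* windows of 1 Mb on either side it had 1.23 (0.654 to 2.101) times, with a knockout value of 0.870 (0.375 to 1.71). With 1 bin on either side of the *Prdm14* bin added, *Tet1* was at 1.40 (0.905 to 2.07) and 1.19 (0.692 to 1.90), so the contrast between the libraries was not seen at that width.

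**Figure D4:**
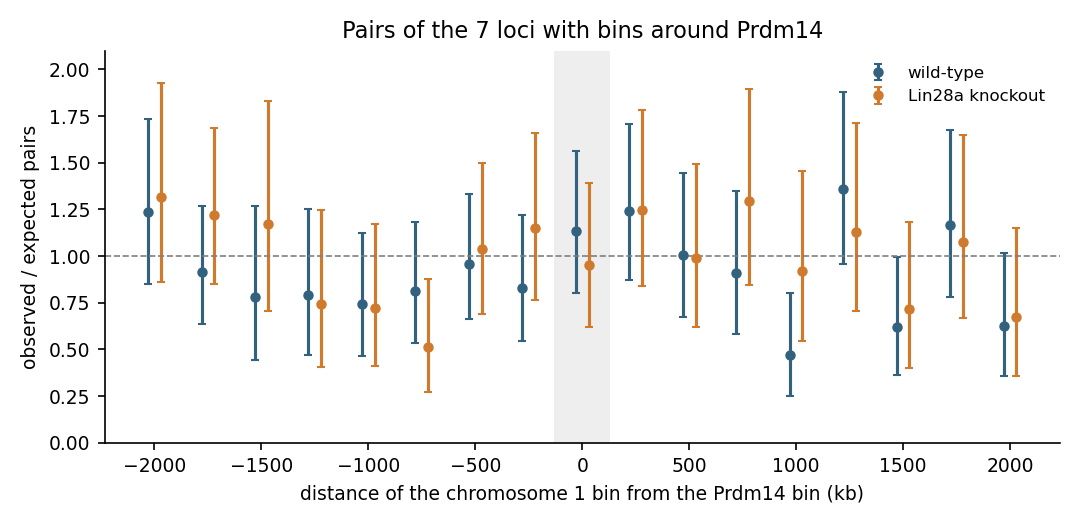
Observed over expected pairs of the 7 loci (vertical axis) with 250 kb bins of chromosome 1 by their distance from the Prdm14 bin (horizontal axis, kb; grey band at 0), in the wild-type (blue) and Lin28a knockout (orange) library, with 95% Poisson intervals. The Prdm14 bin, at 1.14 and 0.950, does not stand out from its neighbours.

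*Gbx2*, a homeobox gene linked to the naive state, gave a like result, with 35 pairs (0.987 of the expected number) and 31 pairs (1.14), at ranks 158 and 92. The bin with the highest value of the 349 in the wild-type library lay at chr1:36000001-36250000 and holds the starts of *Hs6st1*, a heparan sulfate sulfotransferase, and *Uggt1*, a glucosyltransferase of protein folding. It was picked by its value, so its wild-type count of 73 pairs where 43.1 were expected is a description. The knockout library was not used to pick it and had 60 pairs where 33.0 were expected, 1.82 (1.39 to 2.34), rank 2. Of these knockout pairs *Pou5f1* gave 16 (2.63 times the expected number), *Tet1* 15 (2.66), *Klf4* 8 (2.40) and *Esrrb* 8 (1.78). *Nanog* with *Dppa3* gave 5 (1.06), *Sox2* 5 (1.14) and *Zfp42* 3 (0.691). In the same bin and library the other pluripotency genes were at 0.833 (0.620 to 1.09) and the early lineage genes at 1.06 (0.793 to 1.39). The share of all gene windows with such an excess in this bin was not computed. Of the 10 bins highest in the wild-type library, 9 were above 1 in the knockout library, where 44.1% of all bins were. Over all 349 bins the Pearson correlation between the libraries was 0.35, a description over bins that are not independent of their neighbours. The correlation of the same values with the number of gene starts in the bin was 0.33 (wild-type) and 0.29 (knockout).

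Around the start sites themselves the trans ends were at most slightly above the mean of the window. Each locus was turned in the direction of transcription (*Nanog* standing for its locus) and the ends were counted in steps of 50 kb. Within 50 kb on either side of the start the pooled wild-type count was 934 pairs, 1.06 (0.997 to 1.14) times the mean of the window, and the knockout count 711, 1.06 (0.979 to 1.14) times. All protein-coding genes gave 1.02 and 1.03. Within 100 kb on either side the members gave 1.07 (1.02 to 1.12) and 1.05 (1.00 to 1.11). The first 50 kb downstream was the highest of the 20 steps in both libraries, at 1.18 (1.08 to 1.28) from 517 pairs and 1.14 (1.03 to 1.26) from 383 pairs, where all genes gave 1.03 and 1.03. Other steps of each library also had intervals that left out 1, on both sides of it. In the knockout library these were 1.11 (1.0003 to 1.23) at 50 to 100 kb and 0.840 (0.745 to 0.944) at 450 to 500 kb downstream. The step just downstream was picked by its value, and it was also the highest step for all genes in both libraries. That step held 892 cut sites, among 839 to 1003 in the 20 steps.

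Among the wild-type values of this step *Pou5f1* was highest, at 1.49 (1.22 to 1.81) from 103 pairs, with a knockout value of 1.24 (0.956 to 1.57) from 66 pairs. Among the knockout values *Sox2* was highest, at 1.28 (0.991 to 1.63) from 66 pairs, with a wild-type value of 1.21 (0.960 to 1.49) from 83 pairs. *Klf4* alone was below 1 there in both, at 0.836 (0.602 to 1.13) and 0.822 (0.550 to 1.18). Over the 50 kb on either side *Klf4* had 77 and 51 pairs, 0.766 (0.605 to 0.958) and 0.722 (0.538 to 0.950) times the mean of its window. It was the only locus whose interval lay below 1. For this span only the mean over all genes was computed, so whether such a value is unusual for 1 gene is not known. Over the same span *Nanog* had 1.21 (1.03 to 1.42) and 1.04 (0.857 to 1.26). *Pou5f1* had 1.18 (1.01 to 1.38) and 1.04 (0.855 to 1.25), and *Sox2* had 1.09 (0.922 to 1.28) and 1.22 (1.02 to 1.46). Each of these loci thus had an interval above 1 in 1 library only.

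**Figure D5:**
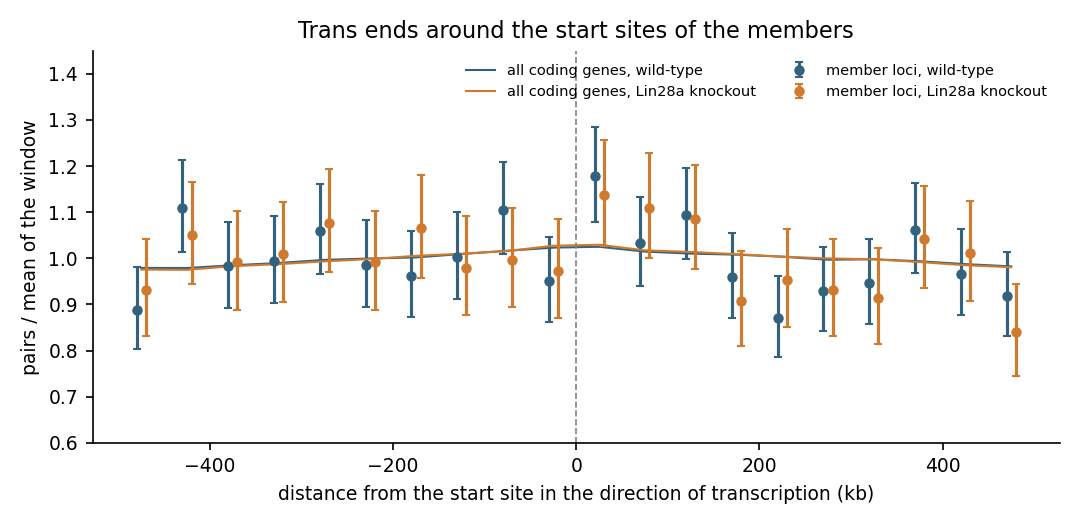
Trans pairs per 50 kb (vertical axis, relative to the mean of the 1 Mb window) by distance from the start site in the direction of transcription (horizontal axis, kb), pooled over the 7 loci (points with 95% Poisson intervals) and over all protein-coding genes (lines), in the wild-type (blue) and Lin28a knockout (orange) library. The step just downstream of the start is highest in both libraries, at 1.18 and 1.14.

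Most ends within gene bodies fell in 2 genes. The long genes *Esrrb* and *Tet1* held 263 and 152 wild-type ends and 190 and 135 knockout ends. The other 6 genes held between 0 and 15 ends in each library: *Zfp42* 15 and 15, *Pou5f1* 11 and 10, *Nanog* 9 and 5, *Klf4* 5 and 1, *Sox2* 3 and 3, and *Dppa3* 0 and 3. At these numbers a difference of a single short gene between the libraries was not detectable.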

How the data were processed

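The authors processed the reads and deposited 1 list of valid pairs per group, with the chromosome, position, restriction fragment and mapping quality score of both ends. Per the submitters' processing notes CASAVA 1.8, Bowtie2, HiC-Pro and the build mm10 were used; versions of the others, filters and the enzyme are not given in the sources used here, and the paper's methods do not describe this assay. The deposited mapping quality score of each end ran from 11 to 42, so lower values had been removed by the authors. Pairs were counted from the deposited positions without normalization. The lists analysed here were partial, and the part of chromosome 1 present in both was used.

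Genes came from GENCODE M21. Windows, bins and ratios were computed with Python 3.11.15, numpy 2.4.6, pandas 2.3.3 and scipy 1.17.1. Counts have exact Poisson intervals, ratios intervals from the exact binomial split, and log2 scores intervals from the counts, at 95%. Pairs are not independent molecules where copies remained, and intervals cover counting error only. A window was called past 1.2-fold. Bins with under 5 expected pairs were left out of ranks. Genes named were the members, *Prdm14*, *Gbx2*, *Lin28a*, the 2 highest and 2 lowest of each list by corrected ratio and the 3 genes nearest to the members' mean; other names in bins were chosen after their values were seen. The members, lists and windows were chosen with earlier results of these data known. Read names show 2 sequencing runs per library, of which the larger gave 91.2% and 95.7% of trans pairs. Of the measures, only the corrected ratio and the preference score with its difference between libraries were tested on simulated data.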

Additional observations from a re-analysis of the deposited data

Results flagged for a closer look

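The knockout list went on into chromosome 2 and held 4458 pairs of its first part with the 7 loci, a signal outside the comparisons above, since wild-type pairs of this kind were not analysed here. These pairs share no chromosome 1 end with the values above. Levels seen from chromosome 2 were computed for the members alone. Whether other gene windows differ as much from their levels seen from chromosome 1 was not tested. Seen from chromosome 2, *Sox2* had a level of 1.86 (1.73 to 2.01), *Tet1* 1.71 (1.59 to 1.82) and *Pou5f1* 1.53 (1.43 to 1.64), each with an interval above that of the same library seen from chromosome 1. *Esrrb* was at 1.40 (1.29 to 1.51), *Klf4* at 1.09 (0.991 to 1.197) and *Zfp42* at 0.894 (0.820 to 0.972). *Nanog* and *Dppa3* were at 0.842 (0.770 to 0.919) and 0.803 (0.732 to 0.878), below the mean of chromosome 6 and below their levels of 1.04 and 1.00 seen from chromosome 1.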

How the results depend on the processing

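No paired analysis was made because each group was taken as 1 sample. The pooled ratio lay between 0.966 (without *Pou5f1*, interval 0.934 to 0.999) and 1.01 under all alternatives run (250 kb or 1 Mb on either side, mapping quality of 30 or more, each run alone, other references, each locus left out). Without the chromosome correction it was 1.01, 1 member (*Zfp42*, 1.34) was past 1.2-fold, and *Nanog* and *Dppa3* turned to 1.09 and 1.097; against 5 Mb on either side these 2 were 1.01 and 1.02. At 1.1-fold 2 members were past. The smaller run alone gave a wild-type score of 0.19, a difference of 0.15, and *Prdm14* values of 0.596 and 0 (counts of 2 and 0). With *Zfp42* left out the knockout score was 0.38, and with 5 Mb flanks as expectation the scores were 0.11 and 0.12. An expectation from all partner chromosomes, chosen after seeing the data, gave scores of 0.25 and 0.25. All annotated genes turned the difference of *Esrrb* to -0.22 and those of *Nanog* with *Dppa3*, *Sox2* and *Zfp42* to 0.28, 0.22 and 0.38. For *Tet1*, the *Prdm14* gene with 50 kb on either side gave 0.666 in the wild-type library. The cause of these shifts was not tested. With a median of 24 and 18 pairs per bin for the 7 loci, single bins have wide intervals, and pairs not assigned to replicates cannot show how separate cultures vary.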
